A study of Mus musculus with 7 samples.

Results

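The genes described here are those of myostatin, activin and BMP signalling and its Id gene targets: Mstn, Inhba, Bmp4, Fst, Grem1, Acvr2b, Smad6, Id1, Id2 and Id3. They were taken by gene name from the annotation of a 1-colour mouse expression array, which gave 11 probes for the 10 genes out of 39429 different non-control probes and 31829 gene names. The RNA came from C2C12 cells, a mouse muscle line that grows as myoblasts and fuses into myotubes. The recipient cells had been incubated for 24 h in serum-free medium with exosomes, the small vesicles that cells release. The exosomes were made by other C2C12 myotubes, collected 9 h after those donor cells had been taken off 0.5 mM palmitate bound to BSA (EXO-Post Palm, 3 arrays) or off BSA alone (EXO-Post BSA, 4 arrays). Palmitate was thus given to the donor cells, and the comparison asks what exosomes of palmitate-treated muscle cells do to the transcripts of recipient cells. Every sample is labelled as C2C12 by its source, but a separate cell line field counts up from C2C12 over the samples, and the labels call the cells myoblasts where the study's methods speak of myotubes. Both groups received exosomes, so no array stands for cells without exosomes. The labels name the arrays biological replicates without saying that they came from separate cultures, so p-values measure the spread between these samples.

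Myostatin, encoded by Mstn, and the activins are secreted ligands that limit muscle growth, and they signal through activin type II receptors to Smad2 and Smad3. BMPs are related ligands that signal to Smad1, Smad5 and Smad9, whose best known targets are the Id genes. Id proteins bind the E proteins that MyoD and myogenin need as partners, and so restrain differentiation. Secreted antagonists such as follistatin, gremlin 1 and noggin bind the ligands outside the cell, and the inhibitory Smads, Smad6 and Smad7, dampen the signal inside it.

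The recipient cells had high levels of myotube transcripts on all 7 arrays. All 7 myotube markers (Myog, Myh3, Ckm, Acta1, Tnnt3, Mybph, Casq2) were well above background and none passed the test between groups. By the brightest tested probe of each gene, 6 had lower and 1 higher means in EXO-Post Palm, with a median log2 difference of -0.10. The groups did not overlap for Myh3, lower by -0.46 on its brightest probe (adjusted p = 0.512 by limma) and by -0.57 on another (adjusted p = 0.464). Of 5 myoblast markers, 3 were tested (Pax7, Myod1, Cdh15), none of them passed, and Myf5 was above background on no array. Among 7 osteoblast markers, which bear on BMP signalling in this line, 3 were tested (Runx2, Bglap1, Bglap2). Bglap2 and the brighter Runx2 probe were well above background on every array. Sp7 and Alpl were above background on no array. None of the osteoblast, adipocyte, macrophage and endothelial markers tested passed. The 75th percentile of signal ranged from 549 to 1621 intensity units over the arrays, 48.5% to 70.3% of probes were well above background, and no spot was saturated. The 7 arrays lay on 4 slides, as told by the barcode in the deposited scan names. The recorded scan dates divide the arrays in the same way, so slide and scan date cannot be told apart. Slide 1 held EXO-Post Palm 1 beside EXO-Post BSA 1 and 2, slide 3 held EXO-Post Palm 3 beside EXO-Post BSA 4, and the other two slides held 1 array each, so only slides 1 and 3 allow a comparison within a slide.

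Grem1 rose, and it was the only member to pass the test. The other tested members did not, among them Smad6 and Fst with negative differences and Id1, Id2 and Id3. Of the 11 probes, 9 were well above background on all 7 arrays and were tested, 1 for each gene other than Mstn. Testing required a signal well above background in 1 group at least, on no fewer than 75% of its arrays. Levels are log2 signal relative to each array's 75th percentile, so that 0 is the level of that percentile, and differences are EXO-Post Palm minus EXO-Post BSA. Over all 21589 tested probes, 0.533% passed at an adjusted p under 0.05 (limma with Benjamini-Hochberg adjustment, 100 higher and 15 lower), 4.85% were higher and 5.19% lower at an unadjusted p under 0.05, and in 5.32% all EXO-Post Palm arrays were above, and in 5.66% below, all EXO-Post BSA arrays. Against that, 1 of 9 members passed (Grem1). At an unadjusted p under 0.05, 1 of 9 was higher (Grem1) and 1 of 9 lower (Smad6), and in these 2 genes the groups did not overlap, 1 member in each direction. The median difference of the 9 was 0.12, and that of all tested probes was -0.02.

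**Figure D1:**
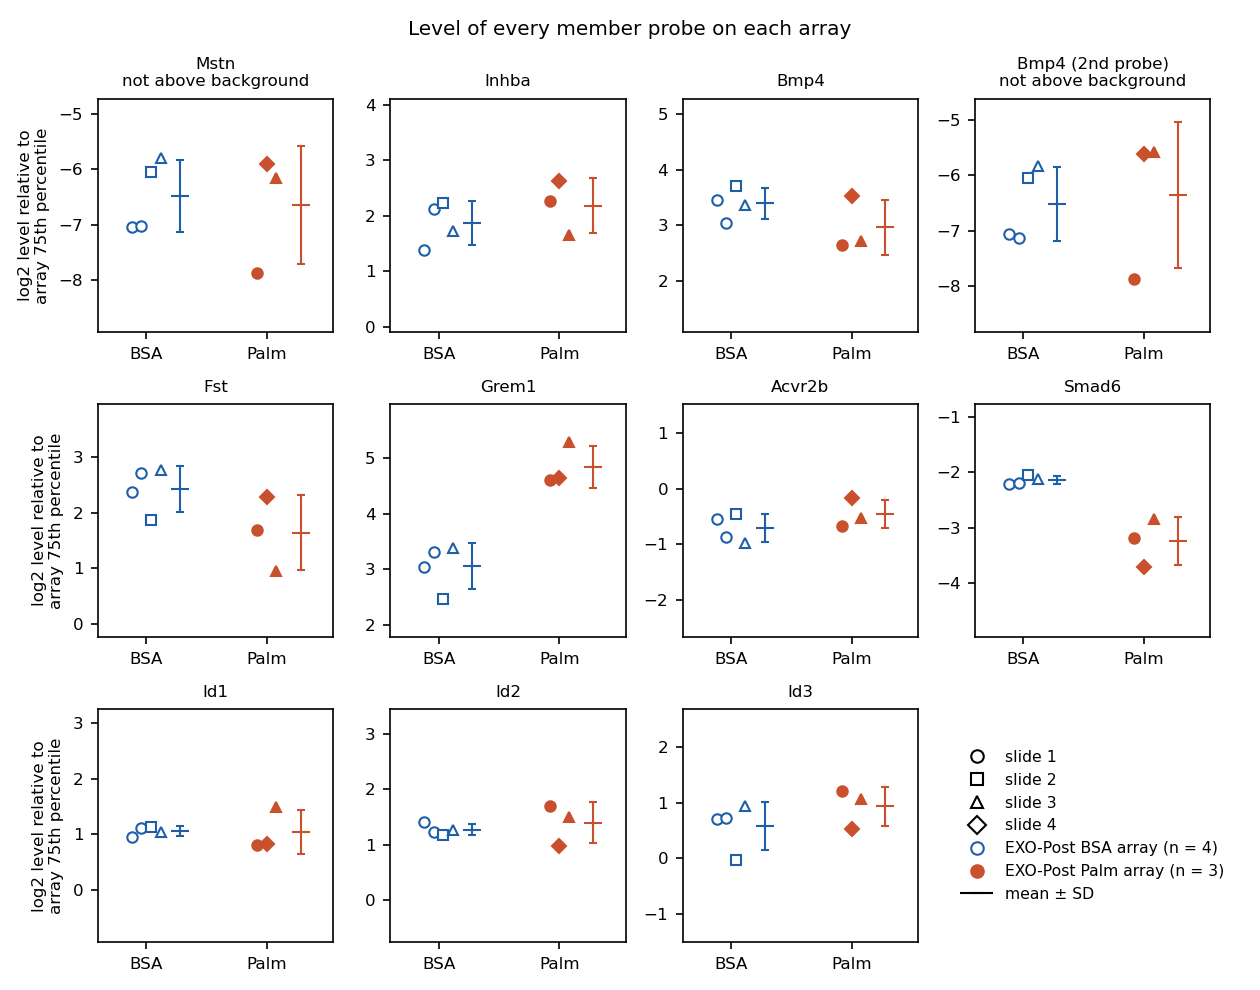
Log2 level of each of the 11 member probes, relative to the 75th percentile of its array, on the 4 EXO-Post BSA arrays (open blue) and the 3 EXO-Post Palm arrays (filled red), with the marker shape giving the slide and the bars the mean ± SD. Each panel has its own centre but the same height, and the groups stand apart for Grem1 (BSA at most 3.38, Palm at least 4.61) and Smad6 (BSA at least -2.21, Palm at most -2.85).

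Among the ligands, Mstn was not well above background on any array. Its levels were -7.04, -7.02, -6.05 and -5.80 on the EXO-Post BSA arrays and -7.86, -5.91 and -6.16 on the EXO-Post Palm arrays, from raw signals of 6.96 to 13.0 intensity units. Such values follow the background of each array, and the probe was not tested. The arrays of slide 1 (EXO-Post BSA 1 and 2 and EXO-Post Palm 1) read lower than all others, and the groups overlapped. Bmp4 had 1 probe well above background on all arrays and 1 on none, although both carry the same transcript accession and start 193 bases apart. The first 30 of the 60 bases of the Mstn probe and of both Bmp4 probes, which measured so differently, read as follows, 5′ to 3′, in the array files.
Mstn, A_51_P384901: tcacaaaaaaggtgactgcttctatttcag
Bmp4, A_55_P2154387: caaccacctacacataccacacaaactgct
Bmp4, A_55_P1959022: gacaaatatatttataactacatattaaaa
The array annotation placed the Mstn probe at chr1:53124482-53124541 (plus strand, mm9), the bright Bmp4 probe at chr14:47003391-47003450 and the dim one at chr14:47003198-47003257 (both minus strand). No annotation of that build was used here, so exon and untranslated parts were not assigned.

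The bright Bmp4 probe, for a BMP that holds back myoblast differentiation, read 3.46, 3.05, 3.72 and 3.36 on the EXO-Post BSA arrays and 2.64, 3.54 and 2.72 on the EXO-Post Palm arrays. EXO-Post Palm 2 lay inside the EXO-Post BSA range and the other two below it. The difference was -0.43 (SE 0.28, 95% interval -1.07 to 0.21, adjusted p = 0.655 by limma). Within slide 1 it was -0.61 and within slide 3 it was -0.64, and with 1 array left out it ran from -0.72 (without EXO-Post Palm 2) to -0.27 (without EXO-Post Palm 1). The dim Bmp4 probe ranged from 6.45 to 13.2 intensity units and carried no test.

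Inhba, which encodes the subunit of activin A, read 1.38, 2.13, 2.23 and 1.72 on the EXO-Post BSA arrays and 2.27, 2.62 and 1.65 on the EXO-Post Palm arrays (chr13:16118634-16118693, plus strand, mm9). The groups overlapped, and the difference of 0.31 (SE 0.31, 95% interval -0.39 to 1.01, adjusted p = 0.773 by limma) was about as large as its SE. It ran from 0.09 without EXO-Post Palm 2 to 0.58 without EXO-Post Palm 3.

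Grem1 encodes gremlin 1, a secreted antagonist of BMP2, BMP4 and BMP7, and it showed the largest difference of the 9 members. Its levels were 3.04, 3.31, 2.46 and 3.38 on the EXO-Post BSA arrays and 4.61, 4.64 and 5.28 on the EXO-Post Palm arrays. Every EXO-Post Palm array was above every EXO-Post BSA array, and the lowest value belonged to EXO-Post BSA 3, the 1 array on slide 2. Mean levels were 3.05 ± 0.42 in the EXO-Post BSA group (SD, n = 4) and 4.84 ± 0.38 in the EXO-Post Palm group (SD, n = 3). The difference was 1.79 (SE 0.29, 95% interval 1.13 to 2.46), which is 3.46-fold, with an adjusted p of 0.0436 by limma. The 2-sided exact permutation test over the 35 ways of dividing the arrays gave p = 0.0286, the smallest value it can give. Within slide 1 the difference was 1.43 and within slide 3 it was 1.90. With slide as a block the difference was 1.63 and the adjusted p 0.0669. Fits to 6 of the 7 arrays kept the difference between 1.57 and 1.91 but gave an adjusted p of 0.0514 to 0.166, so the call was lost whichever array was left out. The Grem1 probe, at chr2:113589227-113589286 on the minus strand (mm9), begins as follows.
Grem1, A_52_P481957: tcctaaattaattcacttgaccgcgggtgt

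Proliferation markers, a list chosen with earlier results of these data known, moved with the same groups. By the brightest tested probe of each gene, the 7 that were tested, of 8 listed, were higher in the EXO-Post Palm group without overlap between groups, by a median of 2.31 on the log2 scale, and 5 of them passed (Mki67, Top2a, Ccnb1, Plk1 and Cdc20). Over all tested probes, 5.32% were higher without overlap and 0.533% passed in either direction. Other probes of the proliferation markers were less uniform, since a dimmer Mki67 probe did not pass (adjusted p = 0.0701 by limma), a dimmer Birc5 probe did (adjusted p = 0.0108) and another Birc5 probe had overlapping groups. Their summed level, as a multiple of the array's 75th percentile, was 6.04 to 7.45 on the EXO-Post BSA arrays and 26.3 to 55.2 on the EXO-Post Palm arrays. The probe for Aurkb was above background on no array. The part of these transcripts in the Grem1 difference was not tested, and in a culture measured as a whole, more cells of a kind and more RNA per cell cannot be told apart.

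The 5 gene names whose levels over the 7 arrays were most like those of Grem1 were Kif18b, 2610002D18Rik (Aunip in RefSeq), Foxm1, Etv1 and Bub1b. Kif18b is a mitotic kinesin, Foxm1 a transcription factor of late cell cycle genes, Bub1b a spindle checkpoint kinase and Etv1 an ETS transcription factor. Their Pearson correlations with Grem1 were 0.996, 0.992, 0.990, 0.990 and 0.988 (n = 7 arrays), with Spearman values of 0.93 to 0.96, and 0.92 to 0.97 after the group means were taken out. The arrays are shared by all probes and fall into 2 groups, so these values only describe likeness, and 320 probes, these 5 included, had a Pearson correlation with Grem1 over 0.9 (1.51% of the 21137 tested probes with a value on every array). The values with group means taken out belong to genes picked for the highest correlation, so they too only describe likeness. Of the 5, Kif18b (2.27, adjusted p = 0.0414) and Bub1b (2.93, adjusted p = 0.0108) passed by limma, whereas 2610002D18Rik (2.04, adjusted p = 0.0581), Foxm1 (1.64, adjusted p = 0.0524) and Etv1 (0.87, adjusted p = 0.219) did not. Over all tested probes 0.533% passed. The 5 were picked for likeness to Grem1, whose groups did not overlap. A difference between groups therefore follows largely from the choice, and these tests add no support.

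Fst encodes follistatin, which binds activins and myostatin. Its levels were 2.38, 2.71, 1.86 and 2.76 on the EXO-Post BSA arrays and 1.69, 2.28 and 0.95 on the EXO-Post Palm arrays (chr13:115243565-115243624, minus strand, mm9). EXO-Post Palm 2 lay inside the range of the other group and EXO-Post Palm 3 was the lowest of all. The difference was -0.78 (SE 0.35, 95% interval -1.59 to 0.02, adjusted p = 0.511 by limma). It was -0.85 within slide 1, -1.81 within slide 3 and -1.26 with slide as a block (adjusted p = 0.232). With 1 array left out it ran from -1.10 without EXO-Post Palm 2 to -0.44 without EXO-Post Palm 3. The antagonists Grem1 and Fst thus had differences of opposite sign, of which only that of Grem1 passed.

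Acvr2b encodes an activin type II receptor that also binds myostatin. Its levels ran from -0.98 to -0.45 on the EXO-Post BSA arrays and from -0.67 to -0.17 on the EXO-Post Palm arrays, with a difference of 0.26 (SE 0.23, 95% interval -0.27 to 0.78, adjusted p = 0.749 by limma; chr9:119342560-119342619, plus strand, mm9). The groups overlapped, the values within slides were 0.04 and 0.46, and with 1 array left out the difference ran from 0.12 (without EXO-Post Palm 2) to 0.37 (without EXO-Post Palm 1).

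Smad6 encodes an inhibitory Smad that acts mainly on BMP signals and is itself induced by them. Its levels were -2.21, -2.19, -2.05 and -2.12 on the EXO-Post BSA arrays and -3.18, -3.70 and -2.85 on the EXO-Post Palm arrays. All EXO-Post Palm arrays were below all EXO-Post BSA arrays, which lay within a narrow range (-2.14 ± 0.07, SD, n = 4) compared with the EXO-Post Palm arrays (-3.24 ± 0.43, SD, n = 3). The difference was -1.10 (SE 0.24, 95% interval -1.65 to -0.56), a level 2.15-fold lower with EXO-Post Palm. The exact permutation test gave p = 0.0286, the smallest it allows, but the adjusted p over all tested probes was 0.124 by limma, so the difference did not pass. It was -0.98 within slide 1 and -0.73 within slide 3, and between -1.30 and -0.87 when any 1 array was left out. Its probe, at chr9:63800980-63801039 on the minus strand (mm9), had raw signals of 49.8 to 251 intensity units, was well above background on all 7 arrays and begins as follows.
Smad6, A_55_P2129658: cttttttaaagagaattatacagtagaact

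**Figure D2:**
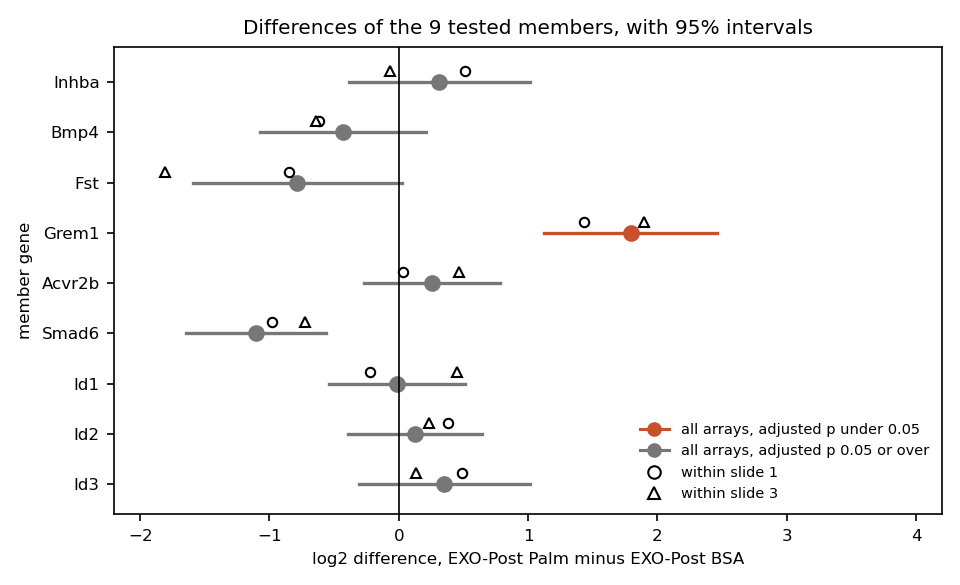
Log2 difference of each tested member, EXO-Post Palm minus EXO-Post BSA, as a filled point with its 95% interval from limma, in red where the adjusted p was under 0.05, with the differences within slide 1 (open circle) and slide 3 (open triangle) above it. The Grem1 interval runs from 1.13 to 2.46 and the Smad6 interval from -1.65 to -0.56, and the other 7 intervals include 0.

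**Figure D3:**
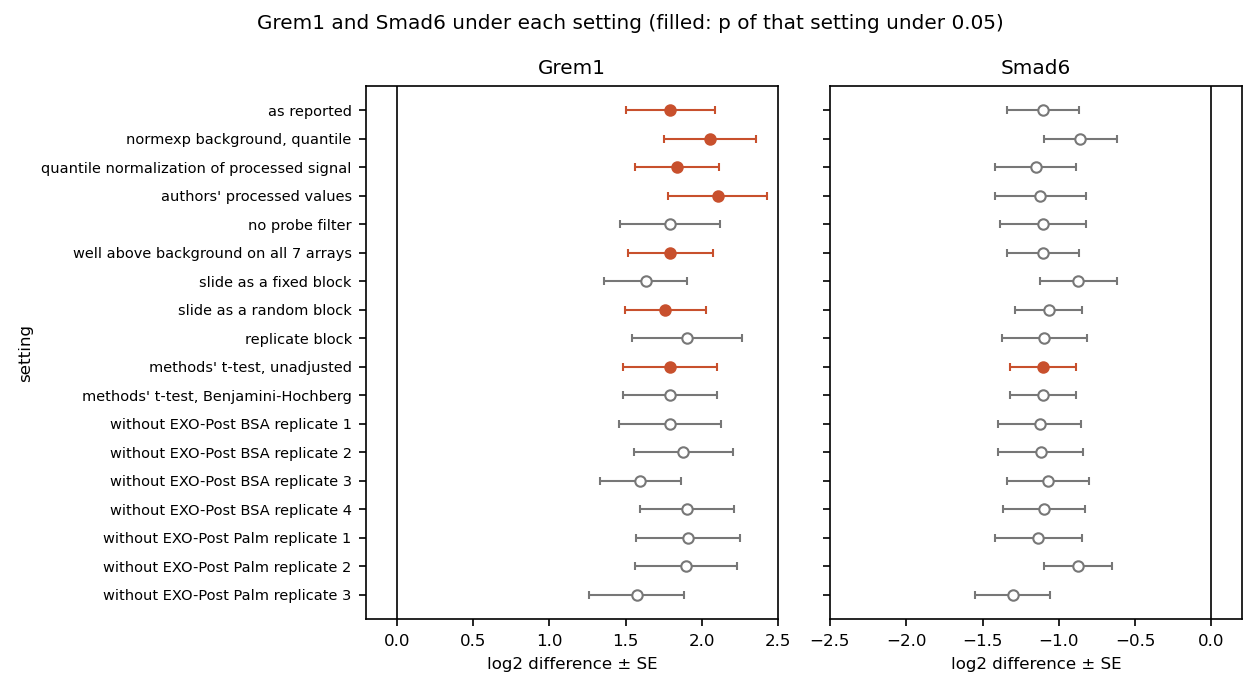
Log2 difference of Grem1 and Smad6 with its SE as reported and under the 17 other settings of processing, test and arrays, filled red where the p of that setting was under 0.05 (adjusted over all probes, except in the setting marked unadjusted). The Grem1 value stays above 1.5 and the Smad6 value below -0.8 in every setting drawn, while the filling changes between settings for Grem1, and Smad6 is filled in 1 setting, the unadjusted one.

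The Id genes, which encode inhibitors of bHLH factors, had 95% intervals that include 0. Id1 read 0.95, 1.11, 1.13 and 1.05 on the EXO-Post BSA arrays and 0.81, 0.83 and 1.50 on the EXO-Post Palm arrays. EXO-Post Palm 1 and 2 were below the whole EXO-Post BSA range and EXO-Post Palm 3 above it, which left a difference of -0.02 (SE 0.23, 95% interval -0.54 to 0.51, adjusted p = 0.990 by limma). This difference depended on the processing. It was -0.41 with normexp background correction and -0.46 in the authors' processed values, and its sign turned to 0.01 under quantile normalization and to 0.06 with slide as a block.

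Id2 read 1.41, 1.22, 1.19 and 1.27 on the EXO-Post BSA arrays and 1.70, 0.98 and 1.50 on the EXO-Post Palm arrays. Here EXO-Post Palm 2 was the lowest array and the other two the highest, with a difference of 0.12 (SE 0.23, 95% interval -0.39 to 0.64, adjusted p = 0.889 by limma). Id3 read 0.70, 0.72, -0.04 and 0.93 on the EXO-Post BSA arrays and 1.20, 0.53 and 1.06 on the EXO-Post Palm arrays, and its difference was 0.35 (SE 0.29, 95% interval -0.31 to 1.01, adjusted p = 0.727 by limma). The Id3 difference ran from 0.15 without EXO-Post BSA 3 to 0.55 without EXO-Post Palm 2. EXO-Post BSA 3, on a slide of its own, was the lowest of its group for Id2, Id3, Grem1 and Fst. It was the highest of its group for Inhba, the bright Bmp4 probe, Acvr2b, Smad6 and Id1. The intervals of all 3 Id genes include both 0 and changes in either direction. They run from -0.54 to 0.51 for Id1, from -0.39 to 0.64 for Id2 and from -0.31 to 1.01 for Id3. A change within those limits cannot be told from none with 7 arrays. The probes for Id1 (chr2:152563083-152563142, plus strand), Id2 (chr12:25778904-25778963, minus strand) and Id3 (chr4:135700075-135700249, plus strand, a stretch longer than the 60-base probe) are placed on mm9.

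The Id and Smad6 genes are textbook targets of BMP Smads, and the promoters of Grem1, Smad6 and Id2 are shown. The groups did not overlap for Grem1 and Smad6 but did for Id2. They also overlapped for Inhba, Bmp4, Acvr2b and Id3, whose promoters are not printed. The RefSeq table (GRCm38.p6) held promoters for 8 of the 10 members, and Id1 and Fst were not among them. In the 250 bases before the start, GGCGCC, the palindromic BMP Smad element, which reads the same on both strands, occurred in Grem1 and Id2 and in no other of the 8, against 9.59% of 32851 promoters of that length. GTCT, the Smad3 and Smad4 core, counted on both strands and unable to overlap GGCGCC, was present in all 8, against 82.9% of all promoters. A match describes letters only. Capitals mark GGCGCC.
Grem1, chr2:113758649-113758898, minus strand: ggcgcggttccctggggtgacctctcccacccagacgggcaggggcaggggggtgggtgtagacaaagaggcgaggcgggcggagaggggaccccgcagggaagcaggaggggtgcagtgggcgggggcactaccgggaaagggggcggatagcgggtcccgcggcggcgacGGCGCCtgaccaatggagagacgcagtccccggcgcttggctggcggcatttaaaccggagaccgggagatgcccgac
Smad6, chr9:64022060-64022309, minus strand: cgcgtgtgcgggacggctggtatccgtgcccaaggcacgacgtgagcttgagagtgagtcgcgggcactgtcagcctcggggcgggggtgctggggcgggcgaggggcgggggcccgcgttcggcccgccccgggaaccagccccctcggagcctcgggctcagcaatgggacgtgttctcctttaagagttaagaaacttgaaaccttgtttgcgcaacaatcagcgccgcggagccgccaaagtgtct
Id2, chr12:25096093-25096342, minus strand: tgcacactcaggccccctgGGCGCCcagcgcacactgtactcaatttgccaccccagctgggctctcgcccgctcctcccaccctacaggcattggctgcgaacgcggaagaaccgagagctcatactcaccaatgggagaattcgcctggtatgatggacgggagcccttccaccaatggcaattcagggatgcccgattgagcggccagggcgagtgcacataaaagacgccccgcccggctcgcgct

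The rest of the pathway was described with a list of 44 further genes, grouped by role and counted by the brightest tested probe. Of these, 32 were tested, 8 with higher and 24 with lower means in EXO-Post Palm where 46.5% of all gene names tested were higher, and none passed (adjusted p of 0.295 to 0.999 by limma). Which probe is used affects that tally, since 12 of the 32 had several tested probes and in 5 of these (Chrdl1, Acvr1b, Smad3, Smurf2 and Tcf3) the probes differed in sign. None of the 46 tested probes passed. At an unadjusted p under 0.05, 1 was higher (Nog) and 5 were lower (Acvr2a, Smad3, Smad7, Tcf3 and Tcf4), against 4.70% higher and 5.46% lower of all 17477 gene names tested. In 2 genes all EXO-Post Palm arrays were above, and in 4 all were below, the EXO-Post BSA arrays, against the 5.32% and 5.66% of all tested probes. The median difference of the 32 was -0.11, against -0.03 for all gene names tested. Of the 12 that were not tested, 6 were above background on no array (Bmp2, Bmp5, Bmp6, Acvr1c, Bambi and Smad9).

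Nog encodes noggin, which like gremlin 1 binds BMPs, and it had the largest positive difference among the brightest probes of the list. Its levels were -0.86, -1.38, -1.43 and -1.87 on the EXO-Post BSA arrays and -0.61, 0.24 and -0.65 on the EXO-Post Palm arrays. The groups did not overlap, though EXO-Post BSA 1 came close to the EXO-Post Palm arrays, and the difference was 1.04 (SE 0.32, 95% interval 0.32 to 1.76, adjusted p = 0.295 by limma). It was 0.51 within slide 1 and 1.22 within slide 3. The other 7 of 8 tested secreted antagonists had negative differences on their brightest probes, down to -0.44 for Fstl3, the follistatin-like protein (adjusted p = 0.627 by limma). Chrdl1, which encodes a chordin-like BMP antagonist, was at -0.15 on its brightest probe but at 0.69 and 0.42 on the other two tested (adjusted p = 0.362 and 0.762).

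Among the ligands, 4 of 9 were tested. Inhbb, the activin B subunit, had the largest positive difference on the brightest probes (0.20, adjusted p = 0.760 by limma) and Inha, the inhibin subunit, the one negative difference (-0.21, adjusted p = 0.745), both without overlap between groups, and Gdf11 and Gdf5 differed by 0.06 and 0.07. A dimmer Gdf5 probe differed by 0.63 (adjusted p = 0.517). Of 9 tested receptors and co-receptors, 7 had negative differences on their brightest probes. Acvr2a, the other activin type II receptor gene, had the lowest (-0.97, SE 0.37, adjusted p = 0.431 by limma), with -0.70 within slide 1 and -0.60 within slide 3, and Hfe2, the BMP co-receptor hemojuvelin, the highest (0.26, adjusted p = 0.796). Acvr1b, an activin type I receptor gene, differed by -0.04 on its brightest probe and by 1.08 on a dimmer one (adjusted p = 0.493). That was the largest positive value of any tested probe on the list. The dimmer probe was well above background on 3 of 3 EXO-Post Palm arrays but on 1 of 4 EXO-Post BSA arrays. It was therefore tested only through the EXO-Post Palm group, and its raw signals were 21.5 to 71.4 intensity units.

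Smad7, the inhibitory Smad related to Smad6, had the lowest difference of the 8 tested Smads and Smad regulators. It read -1.71, -1.03, -1.66 and -1.29 on the EXO-Post BSA arrays and -1.67, -2.66 and -2.77 on the EXO-Post Palm arrays. EXO-Post Palm 1 lay inside the EXO-Post BSA range and the other two far below it, with a difference of -0.94 (SE 0.32, 95% interval -1.67 to -0.22, adjusted p = 0.363 by limma). On slide 1 the difference was -0.30 and on slide 3 it was -1.48. Smurf1, a ubiquitin ligase for Smads, had the highest difference of the group (0.38, adjusted p = 0.705). Smad3, named because its unadjusted p was low and so chosen after its values were seen, differed by -0.61 on its brightest probe and 0.37 on another.

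Of the bHLH partners of Id proteins, Tcf3, which encodes the E proteins E12 and E47, had the lowest difference of the whole list on its brightest probe (-1.18, SE 0.51, adjusted p = 0.487 by limma). Its EXO-Post Palm levels were 0.67, 0.46 and -1.65, its EXO-Post BSA levels 0.84 to 1.18, and without EXO-Post Palm 3 the difference was -0.45. A dimmer Tcf3 probe differed by 0.33. Tcf4, also named after its values were seen, differed by -0.55 (adjusted p = 0.474) and Tcf12 by -0.06 (adjusted p = 0.961).

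**Figure D4:**
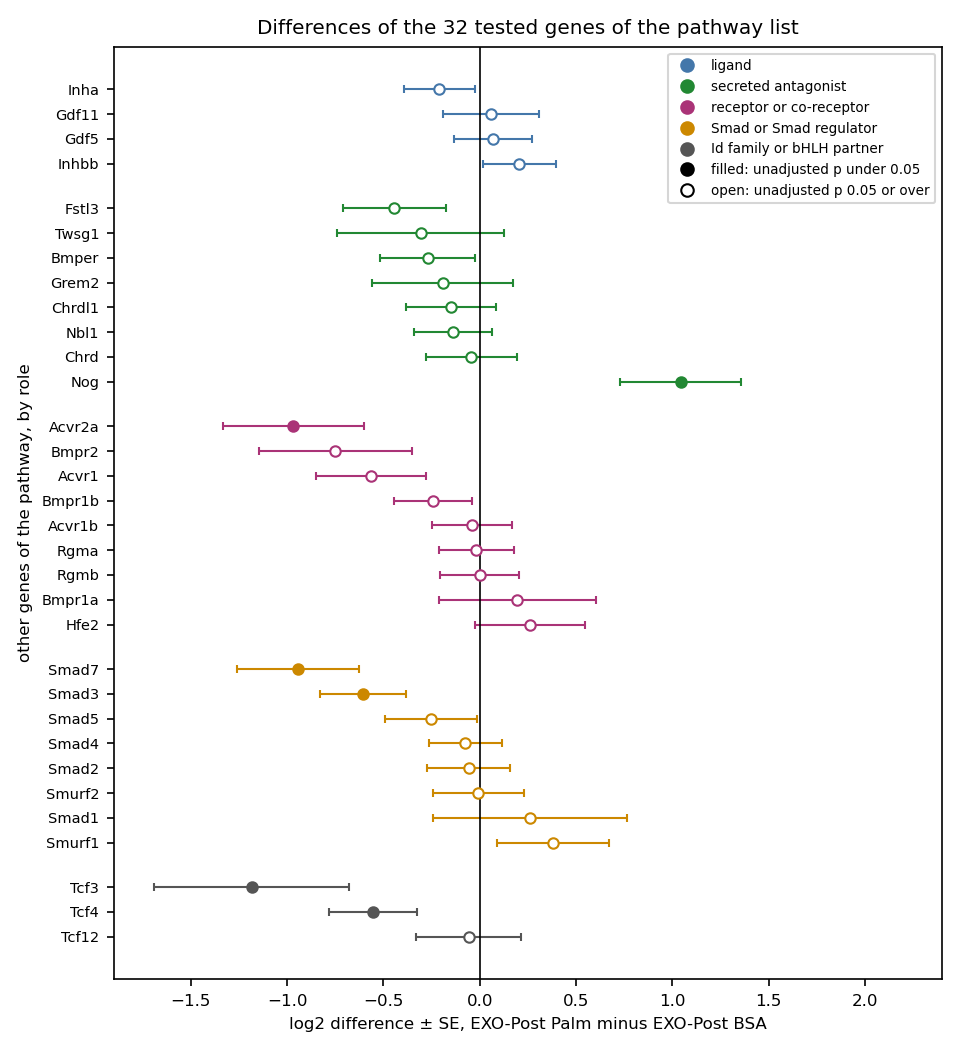
Log2 difference, EXO-Post Palm minus EXO-Post BSA, with its SE from limma, for the brightest tested probe of the 32 tested genes of the pathway list, coloured by role and filled where the unadjusted p was under 0.05. Nog stands to the right at 1.04, and Tcf3 (-1.18), Acvr2a (-0.97) and Smad7 (-0.94) lie farthest to the left, and none of the 32 passed after adjustment.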

How the data were processed

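The 10 genes and the pathway and marker lists were chosen with earlier results of these data known. RNA (0.1 µg per sample) was labelled with Cy3 and hybridised to Agilent 4x44K v2 mouse arrays. The authors deposited scanner intensity values from Agilent Feature Extraction (10.7.3.1 in the file headers, 11.5.1.1 for EXO-Post BSA 3, whereas the submitters' processing notes name 9.1), background-subtracted by the scanner software, with annotation on mm9. They also deposited log2 values, quantile normalized across arrays, matched here by row order. That processing named Agi4x44PreProcess and limma.

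From the intensities, log2 signal minus the array's 75th percentile over non-control spots was computed, with spots of a probe averaged and outlier spots left out. Probes whose signal was well above background on no fewer than 75% of a group's arrays were tested with limma 3.58.1 in R 4.3.3 (lmFit and eBayes, 4 against 3 arrays, no covariate) and Benjamini-Hochberg adjustment over all 21589 of them. The array number limits precision. The genes named by rule were the members, the largest rise and fall of each pathway role, and the 5 genes most like Grem1. Values of Gdf11, Gdf5, Chrdl1, Acvr1b, Smad3 and Tcf4 were given outside that rule. The normexp alternative used the median signal (offset 50), since 1 file has no mean signal. The fit was also run on simulated data with independent normal values and no slide effect, which does not bear on how steady the calls are here.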

Additional observations from a re-analysis of the deposited data

How the results depend on the processing

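The number of member probes past the threshold was 1 as reported (Grem1) and remained 1 under normexp with quantile normalization, quantile normalization, the authors' processed values, the stricter background filter and slide as a random block. It was 0 without a probe filter, with slide as a fixed block, with the replicate block and by the methods' t-test after Benjamini-Hochberg adjustment, 2 by that t-test unadjusted, and 0 to 0 over the 7 fits that each left out 1 array. The pathway list had 0 genes past the threshold in every setting except the unadjusted t-test (5), and 0 to 0 when 1 array was left out. Over all probes the count was 115 as reported, 181 with slide as a random block, 2107 by the unadjusted t-test, and 0 without a filter (1900 at an unadjusted p under 0.05), with the replicate block (1933) and by the adjusted t-test (2107). With 1 array left out it ran from 0 (without EXO-Post BSA 1, 1583 unadjusted) to 202 (without EXO-Post Palm 2), with the tested probes kept as they were. It was 44, 21 and 68 without EXO-Post BSA 2, 3 and 4, and 7 and 27 without EXO-Post Palm 1 and 3. Whether the replicate numbers pair the samples cannot be told from so few arrays. Same-numbered arrays correlated at 0.12, -0.15 and -0.15 in their deviations from group means. Arrays of different groups that shared a slide correlated at 0.12, 0.31 and 0.18, the 0.12 being a pair of both kinds. Under the replicate block Grem1 differed by 1.90 with an adjusted p of 0.219 by limma. The sign turned for Id1, to 0.0122 under quantile normalization, 0.0648 with slide as a fixed block, and from -0.24 to 0.10 with 1 array left out (0.0012, 0.0074, 0.1026 and 0.0928 without EXO-Post BSA 2 and 3 and EXO-Post Palm 1 and 2), and for Id2, to -0.0281 without EXO-Post Palm 1 (from -0.0281 to 0.3308 with 1 array left out). The cause was not tested. No other member turned its sign, but Id1 also moved to -0.4056 under normexp and -0.4636 in the authors' processed values, and Bmp4 from -0.4304 to -0.1829 and -0.1694, and Id2 from 0.1245 to 0.3843 and 0.3872. Mstn and the dim Bmp4 probe lay at background, which bounds nothing about their change.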
